A study of Mus musculus with 9 samples.

Results

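The 10 genes described here are Atp6v0d2, Acp5, Ctsk, Dcstamp, Ocstamp, Nfatc1, Tnfrsf11a, Itgb3, Oscar and Mitf, which mark osteoclasts and the multinucleated macrophages that form by cell fusion. They were found by gene name among 56748 genes, and all 10 had 1 row each in the table. They were chosen by name with their levels and group differences in these 9 libraries in view, so the levels and differences of the 10 genes are given as a description, without a test. Polyadenylated RNA was sequenced from WT mice of the C57BL/6J strain, 2 to 3 months old, as 3 groups of 3 biological replicates, all starting from cortex. Uninjured cortex was intact tissue and injured cortex was the core of a lancet stab lesion. Both were dissociated and passed through a flow cytometer, and the sort dropped dead cells, debris and the neuronal fraction (CD171 positive, ACSA-2 negative). Reactive cultures were lesion cores grown in medium with fetal bovine serum and B27 supplement and collected whole, with no sort. By the sample labels, lesions were dissected 1 day after injury and cultures were grown for 6 days. By the design text, injured cortex was taken at 3 days, and cultures were started at 24 h and analysed after 8 days in vitro, so the times are not settled here. Whether a replicate was 1 animal or a pool is not stated. No cell in the study was labelled as an osteoclast, and fusion itself was not measured.

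Osteoclasts are large cells with many nuclei that arise from the monocyte and macrophage lineage and resorb bone. The cytokine RANKL binds its receptor RANK on precursors, and together with colony-stimulating factor 1 and signals from ITAM adaptor proteins this induces the transcription factor NFATc1. NFATc1, with MITF and PU.1, switches on genes for fusion, for attachment to bone through the integrin alphav beta3, for secretion of acid by a V-type proton pump and for digestion of matrix. Macrophages elsewhere in the body use part of the same set when they form foreign body giant cells. Bone cells of this kind do not belong to normal cortex.

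Total counts were 12205049 to 24302770 per library. Of the 10 genes, 9 had enough counts to be fitted and Oscar did not. Counts of 1999 olfactory and vomeronasal receptor genes, which cortex does not use, reached a total of 182 and 151 CPM (counts scaled to library size) in uninjured replicates 2 and 3, with a range of 14.4 to 44.1 CPM elsewhere. Where dropping those 2 libraries moved a fold change by over 1.5 times, this is said beside it. Levels are CPM with TMM normalisation (a trimmed mean of log ratios), and ± is the SD over 3 libraries unless SE is written. In libraries made from mixed cells, fewer cells of a type and less RNA per cell cannot be told apart.

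Among the receptor and regulator genes, Tnfrsf11a was higher in injured cortex and in cultures than in uninjured cortex, and Mitf overlapped in all groups. Tnfrsf11a, which encodes RANK, was at 18.5, 21.8 and 20.6 CPM in the uninjured libraries, 31.9, 43.9 and 30.8 CPM in the injured libraries and 52.8, 41.6 and 35.0 CPM in the cultures. All 3 injured libraries and all 3 cultures lay above uninjured cortex, while injured cortex and cultures overlapped. Its log2 fold change was 0.81 ± 0.22 (SE) in injured against uninjured cortex, 1.09 ± 0.22 in cultures against uninjured cortex and 0.28 ± 0.22 in cultures against injured cortex. Nfatc1, the master transcription factor of osteoclast formation, was at 22.5, 27.8 and 26.1 CPM in uninjured cortex, 37.7, 38.2 and 29.6 CPM in injured cortex and 30.8, 18.7 and 22.1 CPM in the cultures. Injured cortex was the highest of the groups for this gene, with a log2 fold change of 0.46 ± 0.23 (SE) against uninjured cortex. Cultures were at -0.56 ± 0.23 (SE) against injured cortex, and those groups overlapped because culture replicate 1 lay above injured replicate 3. The uninjured libraries and the cultures overlapped as well.

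Mitf encodes a basic helix-loop-helix factor that drives osteoclast and pigment cell genes. It was at 3.97, 8.21 and 5.77 CPM in uninjured cortex, 4.38, 2.98 and 7.88 CPM in injured cortex and 7.12, 3.68 and 5.87 CPM in the cultures. All 3 groups overlapped, and none of the 3 log2 fold changes was larger than its SE. That of cultures against uninjured cortex was -0.11, and 0.47 with uninjured replicates 2 and 3 left out. Mitf is read from several start sites, and a count per gene does not separate them. Oscar encodes a receptor on osteoclast precursors that signals through an ITAM adaptor. It had 8 counts in all over the 3 uninjured libraries, 6 over the injured libraries and 3 over the cultures, with no library above 0.188 CPM. No fold is given for Oscar at this depth.

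The fusion genes were higher in injured cortex than in uninjured cortex. In cultures against injured cortex, Dcstamp lay above with no overlap and Ocstamp overlapped, and a difference between the 2 genes was not tested. Dcstamp encodes DC-STAMP, a membrane protein that osteoclasts and giant cells need in order to fuse. It was at 0, 0.135 and 0.243 CPM in uninjured cortex, 2.07, 2.46 and 1.26 CPM in injured cortex and 3.31, 5.52 and 10.9 CPM in the cultures. The 3 groups did not overlap, in the order uninjured, injured, culture. A count of 0 in uninjured replicate 1 allows up to 0.166 CPM (3 counts). The log2 fold change was 3.88 ± 0.75 (SE) in injured against uninjured cortex and 1.77 ± 0.57 (SE) in cultures against injured cortex. With uninjured replicates 2 and 3 left out, only a library at 0 remains, and no fold is given for that setting. The pooled counts, 290 in cultures and 7 in uninjured cortex, gave a ratio of 50.7 with a 95% interval of 24.298 to 127 for counting error only.

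Ocstamp encodes OC-STAMP, a related fusion protein. It was at 0.110, 0.224 and 0.182 CPM in uninjured cortex, 9.33, 6.70 and 1.49 CPM in injured cortex and 1.23, 4.54 and 12.3 CPM in the cultures. Injured libraries and cultures all lay above uninjured cortex, but they overlapped each other fully, and the highest culture was 10.0-fold above the lowest. The log2 fold change of cultures against injured cortex was 0.04 ± 0.72 (SE), and it was -1.002 without culture replicate 3. Against uninjured cortex it was 5.01 ± 0.95 (SE) for injured cortex and 5.04 ± 0.96 (SE) for cultures, which was 4.02 without culture replicate 3. Dropping uninjured replicates 2 and 3 gave 5.62 and 5.66. Markers of dendritic cells (Flt3, Zbtb46, Xcr1, Ccr7 and Clec9a) summed to 276, 159 and 55.1 CPM in injured replicates 1, 2 and 3, to 8.30 to 12.5 CPM in uninjured cortex and to 5.396 to 7.24 CPM in cultures. Of these 5 genes, 4 were called higher in injured than in uninjured cortex, and Xcr1 was at 0 in all cultures. The part of such cells in the levels of Ocstamp and Dcstamp was not tested.

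**Figure D1:**
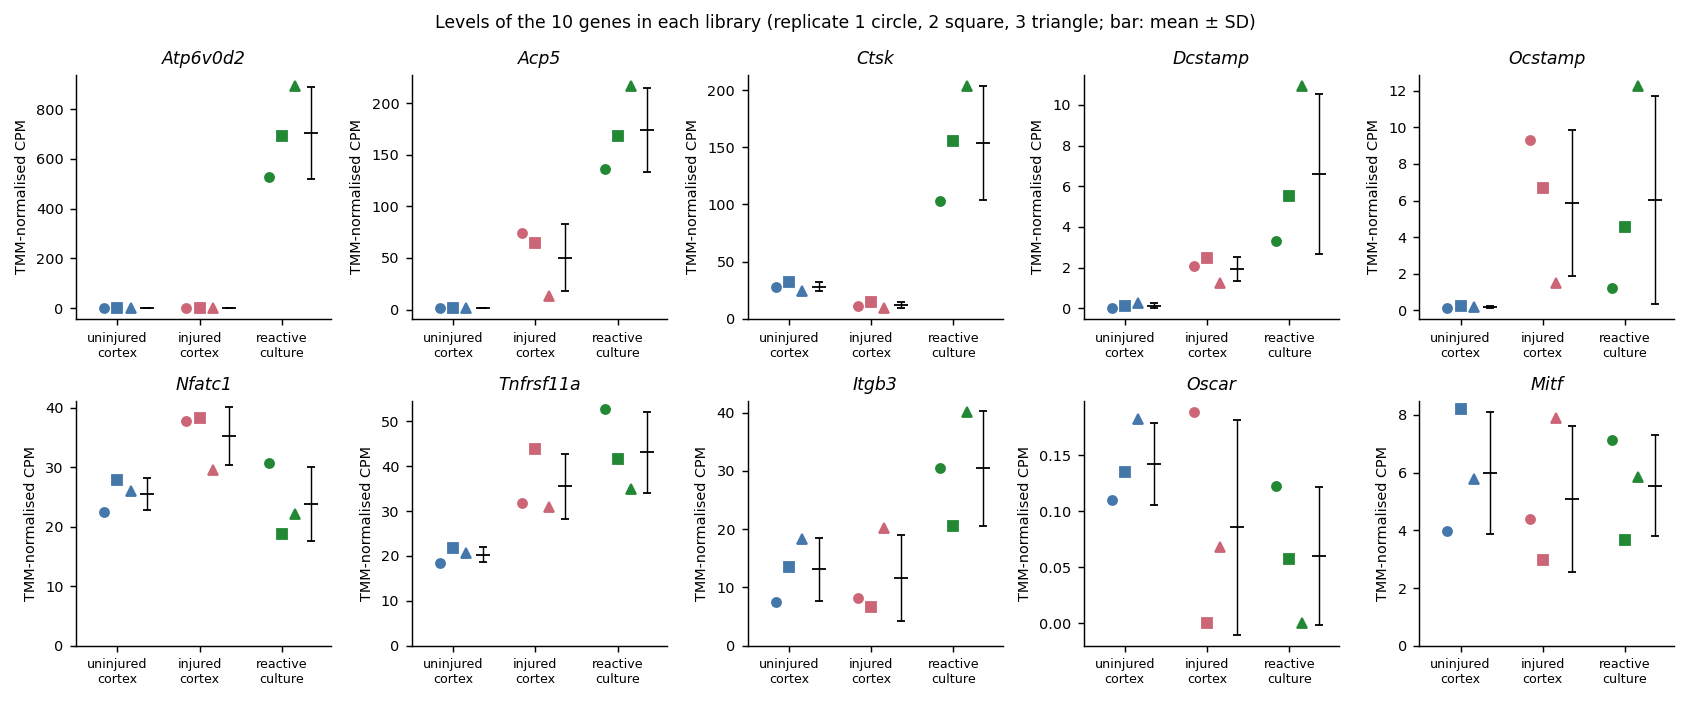
TMM-normalised CPM (y axis, linear, own scale per gene) of each gene in the 3 groups (x axis); symbols are libraries and bars are the mean ± SD of 3. Atp6v0d2 is at 526 to 894 CPM in cultures and under 1 CPM elsewhere, Ctsk is lowest in injured cortex, and the groups of Mitf overlap.

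Itgb3 encodes integrin beta3, the beta chain of the osteoclast adhesion receptor and also of the platelet fibrinogen receptor. It was at 7.56, 13.5 and 18.3 CPM in uninjured cortex, 8.20, 6.70 and 20.1 CPM in injured cortex and 30.5, 20.6 and 40.2 CPM in the cultures. The cultures lay above both in vivo groups, narrowly so at culture replicate 2 and injured replicate 3. The log2 fold change of cultures was 1.37 ± 0.44 (SE) against injured cortex and 1.21 ± 0.44 (SE) against uninjured cortex. The former was 2.03 without injured replicate 3, and the latter 1.997 with uninjured replicates 2 and 3 left out. Injured and uninjured cortex overlapped (-0.16 ± 0.43, SE), and the sign changed in 3 of 18 alternatives. The value was 0.62 with uninjured replicates 2 and 3 left out. Itga2b, the platelet partner of integrin beta3, was at 0.460 to 0.614 CPM in the cultures and 0.607 to 1.09 CPM in vivo. The 6 platelet markers summed to 215 to 377 CPM in cultures and 21.0 to 48.8 CPM in vivo, of which Pf4, a chemokine that macrophages also make, was 214 to 375 CPM in the cultures. Itgav, the alpha chain that pairs with integrin beta3 on osteoclasts, did not pass in any of the 3 comparisons (59.6 ± 18.3, 68.0 ± 19.1 and 89.2 ± 13.9 CPM in uninjured cortex, injured cortex and cultures). In cultures against uninjured cortex it was called higher in 3 alternatives, which dropped injured replicate 3, uninjured replicate 3, or both uninjured replicates 2 and 3 (adjusted p down to 0.0363 in edgeR's test).

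Of the resorption genes, Atp6v0d2 had the largest log2 fold change of the 9 fitted genes in cultures against each in vivo group. Acp5 had the largest in injured against uninjured cortex. Atp6v0d2 encodes the d2 subunit of the V-type proton pump, which osteoclasts and fusing macrophages use besides the common d1 subunit. It had 0, 2 and 1 counts in uninjured cortex (0, 0.0897 and 0.0607 CPM), and it was at 0.188, 0.994 and 0.340 CPM in injured cortex and 526, 691 and 894 CPM in the cultures. The 3 cultures lay far above the other 6 libraries, and the injured libraries lay above the uninjured ones at a few counts each. Pooled counts gave a ratio of 1457 (95% counting interval 1037 to 2116) for cultures over injured cortex and a log2 fold change of 10.48 ± 0.56 (SE), which was 11.31 without injured replicate 2. Over uninjured cortex, with 3 counts in all, the ratio was 13064 (4470 to 63350) for cultures and 8.97 (2.81 to 45.7) for injured cortex. Of the 33 counts in injured cortex, 19 came from injured replicate 2, and the fitted log2 fold change of injured against uninjured cortex was 3.06, or 2.25 without that library. Dropping uninjured replicates 2 and 3 leaves a library at 0, and no fold is given for that setting. Among 18093 genes fitted, Atp6v0d2 ranked 7 by log2 fold change of cultures against injured cortex and 2 against uninjured cortex, where the fitted value depends on the prior count.

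Acp5 encodes tartrate-resistant acid phosphatase, the classic histochemical stain of osteoclasts. It was at 1.54, 1.44 and 1.28 CPM in uninjured cortex, 74.1, 64.1 and 12.9 CPM in injured cortex and 136, 168 and 217 CPM in the cultures. The groups stood in that order with no overlap, and injured replicate 3 was well below the other injured libraries. The log2 fold change was 5.14 ± 0.57 (SE) in injured against uninjured cortex, a 35.2-fold difference, and 1.79 ± 0.47 (SE) in cultures against injured cortex, a 3.45-fold difference.

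Ctsk encodes cathepsin K, the protease that digests bone collagen. It was at 28.0, 32.1 and 24.0 CPM in uninjured cortex, 10.98, 14.96 and 9.78 CPM in injured cortex and 103, 155 and 203 CPM in the cultures. It was the only 1 of the 9 fitted genes whose injured libraries all lay below the uninjured ones, with a log2 fold change of -1.24 ± 0.27 (SE). Cultures were 12.9-fold above injured cortex (3.69 ± 0.29, SE) and 5.47-fold above uninjured cortex (2.45 ± 0.27, SE). Fibroblasts also make cathepsin K. The 6 fibroblast markers (Col1a1, Col1a2, Col3a1, Dcn, Lum and Pdgfra) summed to 28.8 to 39.4 CPM in uninjured cortex, 47.2 to 142 CPM in injured cortex and 214 to 530 CPM in cultures. In cultures against injured cortex 5 of them were called higher and 1 lower, and their part in the level of Ctsk was not tested.

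**Figure D2:**
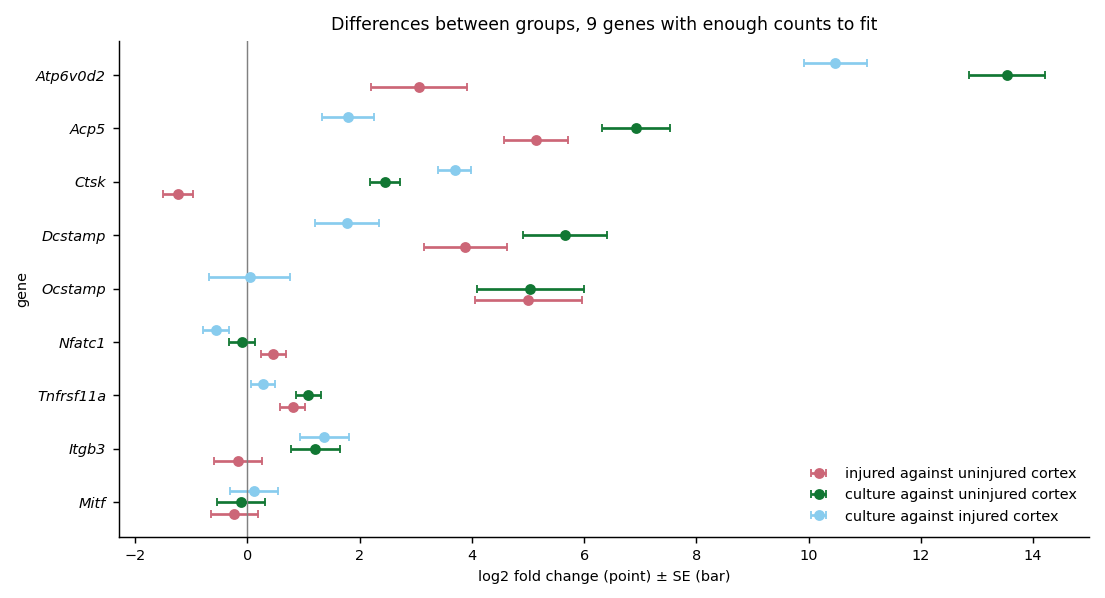
Log2 fold change (x axis; points) with its SE (bars) for the 9 fitted genes (y axis) in 3 comparisons that share libraries. Atp6v0d2, Ctsk and Acp5 have positive values in cultures against injured cortex, Nfatc1 has a negative value, and Ctsk is at -1.24 in injured against uninjured cortex; the fitted values of Atp6v0d2 against uninjured cortex rest on 3 counts there.

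RefSeq windows (GRCm38.p6) before the start sites were at hand for 5 of the 10 genes (Acp5, Ctsk, Mitf, Oscar and Tnfrsf11a), 9 windows in all. The 250 bases upstream were searched on both strands for CACGTG and CATGTG, the E-boxes of MITF and its relatives, GGAAA, the core of NFAT sites, GAGGAA, the core of PU.1 sites, and TGANTCA, the AP-1 site. A GAGGAA followed by an a also holds GGAAA. Short cores are common: of 32851 windows, 55.6% hold GGAAA, 23.3% GAGGAA, 12.3% CATGTG, 6.75% TGANTCA and 6.02% CACGTG. Ctsk and Acp5 are shown because both were highest in every culture and both have a window outside annotated exons. Capitals mark a match, on either strand, and both Acp5 windows are from its minus-strand start sites.
Ctsk, chr3:95498960-95499209, plus strand: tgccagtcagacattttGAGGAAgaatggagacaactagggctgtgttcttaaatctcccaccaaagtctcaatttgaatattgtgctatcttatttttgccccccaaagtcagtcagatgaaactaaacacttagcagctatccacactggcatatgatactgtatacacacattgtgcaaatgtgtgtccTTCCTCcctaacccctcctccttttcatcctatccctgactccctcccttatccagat
Acp5, chr9:22135747-22135996, minus strand: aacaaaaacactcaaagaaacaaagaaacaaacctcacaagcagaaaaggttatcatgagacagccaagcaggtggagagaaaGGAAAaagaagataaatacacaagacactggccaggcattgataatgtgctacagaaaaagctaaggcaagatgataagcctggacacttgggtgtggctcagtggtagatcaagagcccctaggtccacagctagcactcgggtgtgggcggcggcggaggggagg
Acp5, chr9:22131866-22132115, minus strand: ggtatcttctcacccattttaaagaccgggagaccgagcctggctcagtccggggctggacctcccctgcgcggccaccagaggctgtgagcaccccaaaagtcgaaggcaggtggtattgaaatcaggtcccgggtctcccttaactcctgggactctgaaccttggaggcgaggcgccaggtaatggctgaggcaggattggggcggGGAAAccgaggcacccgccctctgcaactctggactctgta
The Ctsk window holds GAGGAA 2 times, starting 233 and 58 bases before the start site, and none of the other motifs. The Acp5 windows each hold GGAAA 1 time, 167 and 41 bases before their start sites. Another Acp5 window, not printed, holds CATGTG 90 bases before its start and GGAAA 2 times. The window of Oscar, which was too low to fit, holds CATGTG 6 bases before its start, GAGGAA at 237 and GGAAA at 249, 220 and 82. Mitf windows hold GGAAA 47 and 136 bases before their start sites, and the Mitf window chr6:97806808-97807057 holds none of the 5 motifs. The Tnfrsf11a window holds none of the 5 motifs either, and CACGTG and TGANTCA occur in none of the 9 windows.

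Across the genes, cultures lay above injured cortex with no overlap for 5 of the 9 fitted genes (Atp6v0d2, Acp5, Ctsk, Dcstamp and Itgb3) and below it for 0, where 25.9% of all 18093 genes lay above and 33.8% below (59.6% in either direction). The median log2 fold change of the 9 was 1.37, against -0.19 over all genes. Against uninjured cortex, cultures lay above for 7 of 9 (all but Nfatc1 and Mitf) and below for 0, where 32.2% and 37.0% of all genes did so (69.2% together), and the medians were 2.45 and -0.17. Injured cortex lay above uninjured cortex for 6 of 9 and below for 1, Ctsk, where 16.1% and 12.5% of all genes did so (28.6% together), and the medians were 0.81 and 0.00. The genes were chosen with these values known, so nothing is read from the counts, and the comparisons share libraries.

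Per kilobase of exon, the order of levels changed with the group. In the cultures the mean CPM per kilobase was 259 for Atp6v0d2, 102 for Ctsk, 85.6 for Acp5, 7.21 for Tnfrsf11a, 5.16 for Itgb3, 3.19 for Nfatc1, 2.48 for Dcstamp, 1.64 for Ocstamp, 0.896 for Mitf and 0.0325 for Oscar. Atp6v0d2 stood apart in every culture, Ctsk and Acp5 overlapped, and all other neighbours in that order overlapped except Acp5 with Tnfrsf11a and Mitf with Oscar. In uninjured cortex Ctsk led at 18.5 CPM per kilobase, followed by Nfatc1 (3.41), Tnfrsf11a (3.39) and Itgb3 (2.23), and Atp6v0d2 (0.0185), Dcstamp, Ocstamp and Oscar were each at 10 counts or fewer in all, too few to order. In injured cortex Acp5 led at 24.8, with 6.38 in injured replicate 3, below the 6.47 of Ctsk in that library.

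Atp6v0d2 made up most of the d subunit counts in every culture and almost none in vivo. Of the counts at both d subunit genes, Atp6v0d2 took 80.5%, 88.5% and 89.2% in the cultures (mean 86.1% ± 4.84), with 95% exact binomial intervals inside 79.7% to 89.7%. It took 0.300%, 1.68% and 0.402% in injured cortex, and 0%, 0.176% and 0.0904% in uninjured cortex, where 0 of 704 counts has an upper limit of 0.523%. Corrected for exon length, the culture shares were 73.1%, 83.6% and 84.5%. Atp6v0d1, the common subunit, rose as well, from 68.3 ± 13.9 CPM in injured cortex to 108 ± 19.0 CPM in cultures (log2 fold change 0.66 ± 0.25 SE, adjusted p = 0.0397 in edgeR's quasi-likelihood test). That call was lost without culture replicate 1 or 3, injured replicate 1 or 2, or uninjured replicate 2, and with upper-quartile factors (adjusted p up to 0.131).

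**Figure D3:**
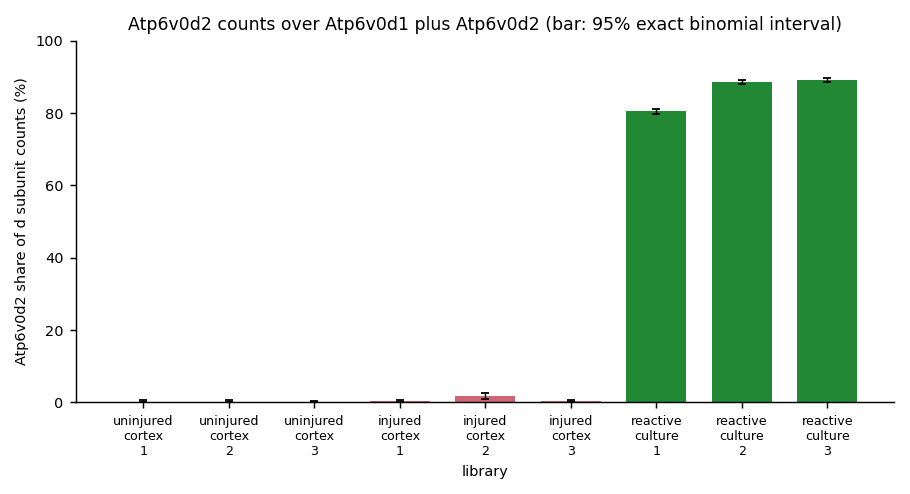
Share of Atp6v0d2 in the counts of Atp6v0d1 and Atp6v0d2 (y axis, percent) in each library (x axis), with 95% exact binomial intervals for counting error. The 3 cultures lie between 80.5% and 89.2%, and the 6 in vivo libraries are at 1.68% or less.

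Libraries of 1 group did not move as a block. Culture replicate 3 was the highest culture for 6 of the 9 fitted genes, namely Atp6v0d2, Acp5, Ctsk, Dcstamp, Ocstamp and Itgb3, and culture replicate 1 for the other 3, Tnfrsf11a, Nfatc1 and Mitf. Injured replicate 3 was the lowest injured library for 6 of 9 and the highest for Itgb3 and Mitf. The summed level of 10 macrophage markers (Csf1r, Cd68, Ptprc, Itgam, Aif1, Adgre1, Tyrobp, Fcer1g, Laptm5 and Spi1) was 5658 CPM in injured replicate 3, against 10515 and 13679 CPM in injured replicates 1 and 2. It was 5505 to 7013 CPM in uninjured cortex and 10261 to 11967 CPM in cultures. None of the 10 markers was at 0 in any library. The part of macrophage content in the levels of the 10 genes was not tested, and the ratio to this list is given next as a description. Whether other immune cells add to the list was not tested either. Markers of T cells, neutrophils and dendritic cells summed higher in every injured library than in the other groups.

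Divided by the macrophage list of the same library, Atp6v0d2, Acp5, Ctsk and Dcstamp lay higher in every culture than in every injured library, and Tnfrsf11a overlapped in all 3 groups. Per 1000 CPM of the list, Atp6v0d2 was at 47.2 to 87.1 CPM in cultures and 0.0179 to 0.0727 CPM in injured cortex. Acp5 was at 12.22 to 21.2 and 2.29 to 7.05 CPM, Ctsk at 9.24 to 19.8 and 1.04 to 1.73 CPM, and Dcstamp at 0.297 to 1.07 and 0.180 to 0.222 CPM. Tnfrsf11a was at 3.41 to 4.74 CPM in cultures, 3.03 to 5.45 CPM in injured cortex and 2.64 to 3.74 CPM in uninjured cortex, with overlap throughout. Nfatc1 was at 1.56 to 2.76 CPM in cultures and 2.80 to 5.22 CPM in injured cortex, below with no overlap. So 4 of 9 lay above injured cortex and 1 below on this scale, where 14.1% and 33.0% of all genes did so. Against uninjured cortex, cultures lay above for 5 of 9 and below for 1, Nfatc1, where 15.8% and 55.9% of all genes did. Injured cortex lay above uninjured cortex for 4 of 9 and below for 1, Ctsk, where 6.72% and 17.9% did. Ctsk was again lower in injured cortex (1.04 to 1.73 CPM) than in uninjured cortex (3.99 to 4.83 CPM).

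The markers of that list did not move together. Csf1r fell from 1462 ± 437 CPM in injured cortex to 386 ± 108 CPM in cultures (log2 fold change -1.92 ± 0.32 SE, adjusted p = 4.20e-04 in edgeR's test). Cd68 rose from 1339 ± 866 to 4919 ± 599 CPM (1.88 ± 0.45 SE, adjusted p = 0.00449 in the same edgeR test), and the log2 fold change was 2.50 without injured replicate 2. With Csf1r alone as denominator, 8 of 9 genes lay above injured cortex, Nfatc1 and Tnfrsf11a among them, and 0 below. The share of all genes on that scale was not computed, and Csf1r itself was lower in every culture. Nothing is read from this count, and the place of Nfatc1 changed with the denominator. Microglial identity genes (P2ry12, Tmem119, Sall1, Cx3cr1, Siglech, Gpr34, P2ry13 and Olfml3) all fell in cultures against injured cortex, 8 of 8, and summed to 251 to 364 CPM there and 3415 to 9134 CPM in injured cortex. None was at 0 in every culture.

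**Figure D4:**
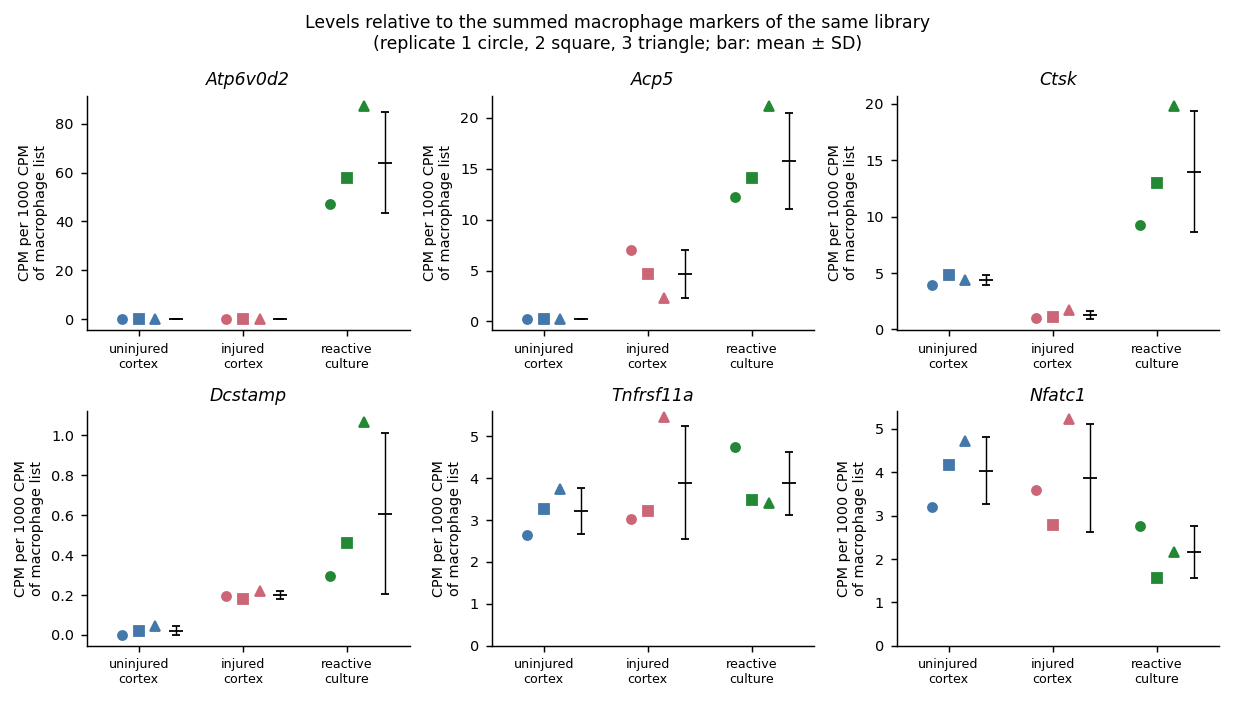
CPM of 6 genes per 1000 CPM of the summed macrophage list in the same library (y axis, own scale per gene) by group (x axis); symbols are libraries and bars the mean ± SD of 3. Atp6v0d2, Acp5, Ctsk and Dcstamp are highest in the cultures, Tnfrsf11a overlaps in all groups, and Nfatc1 is lowest in the cultures.

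The genes whose profiles over the 9 libraries were most like that of Atp6v0d2 were searched among 11101 fitted genes averaging 5 CPM or more, by the root mean square difference of centred log2 CPM. The nearest were Mmp13 (0.83), Mmp12 (0.85), Gpnmb (1.16) and Cd36 (1.23). Mmp13, a collagenase, averaged 0.0816 CPM in uninjured cortex, 0.511 CPM in injured cortex and 418 CPM in cultures. Mmp12, the macrophage elastase, averaged 24621 CPM in cultures. For Dcstamp, among 11102 genes, they were Esco2 (0.51), Mmp19 (0.51), Dynlt1a (0.52), Eme1 (0.54) and Cks1b (0.55). All of these genes were read from the same 9 libraries.

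Other genes of the pathway were taken from 9 lists of 114 genes, of which 106 could be fitted. In edgeR's quasi-likelihood test with Benjamini-Hochberg adjustment, 39 were higher and 28 lower in cultures than in injured cortex at an adjusted p under 0.05, where 20.0% and 30.1% of all genes were (50.1% together). Against uninjured cortex 51 were higher and 16 lower in cultures, where 27.5% and 33.1% of all genes were (60.5% together). In injured against uninjured cortex 24 were higher and 0 lower, where 8.99% and 2.87% of all genes were (11.9% together). The latter count was 13 without injured replicate 1, 14 without uninjured replicate 2 or 3, 41 without injured replicate 3 and 7 with uninjured replicates 2 and 3 left out. It was 15 in a fit of the 2 groups alone.

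In cultures against injured cortex, the ligand RANKL was lower and its decoy was higher. Tnfsf11, which encodes RANKL, rose from 0.0352 ± 0.0315 CPM in uninjured cortex to 2.23 ± 1.05 CPM in injured cortex (by 5.74 on the log2 scale, adjusted p = 9.27e-04) and was lower in cultures at 0.0918 ± 0.0560 CPM (-4.57, adjusted p = 4.47e-04; both in edgeR's test). It had 0, 1 and 1 counts in uninjured cortex, so the size of the fitted difference depends on the prior count. With uninjured replicates 2 and 3 left out, only a library at 0 remains, and no fold is given for that setting. The 5 T cell markers (Cd3e, Cd3g, Trac, Cd4 and Cd8a) summed to 4.41 to 14.4 CPM in uninjured cortex, 44.0 to 161 CPM in injured cortex and 9.78 to 15.3 CPM in cultures. Of these, 5 were called higher after injury and 4 lower in cultures than in injured cortex, and their part in the level of Tnfsf11 was not tested. Tnfrsf11b encodes osteoprotegerin, the soluble decoy that binds RANKL. It rose from 1.31 ± 0.645 CPM in injured cortex to 33.0 ± 2.67 CPM in cultures (4.62, adjusted p = 6.32e-05). Its rise after injury (2.40, adjusted p = 0.0481) was lost in 12 of 18 alternatives, and it was 4.55 without uninjured replicate 1 and 0.99 when uninjured replicates 2 and 3 were dropped. Csf1, the survival factor of the lineage, rose from 26.6 ± 3.79 to 75.3 ± 16.1 CPM after injury (1.50; this call did not hold when uninjured replicates 2 and 3 were dropped, adjusted p = 0.0620) and was at 197 ± 39.3 CPM in cultures (1.39 against injured cortex). Of this list of 17, 4 were higher and 9 lower in cultures than in injured cortex (20.0% and 30.1% of all genes). The lower ones included Fos (-4.74), an AP-1 subunit needed for osteoclast formation, Jun (-3.03), Nfkb1 (-2.43) and Traf6 (-0.96), the adaptor of RANK. None of these 4 was called between injured and uninjured cortex, and Fos was at 2109 ± 1239 CPM in uninjured cortex and 2801 ± 1003 CPM in injured cortex. Both in vivo groups were dissociated and sorted and the cultures were not sorted. The part of this handling in their levels was not tested. Besides Tnfrsf11b and Csf1, the higher ones were Map3k7 (1.00) and Il34 (0.75), whose call was lost in 8 alternatives, among them without culture replicate 2 or 3 or any 1 injured replicate (adjusted p up to 0.184).

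The ITAM list had 2 genes higher, 2 lower and 7 not passing in cultures against injured cortex (all genes: 20.0% higher, 30.1% lower). Tec, a kinase downstream of ITAM receptors, rose from 21.9 ± 2.84 to 74.1 ± 9.30 CPM (1.76, adjusted p = 9.75e-05 in edgeR's test). Sirpb1a was lower (-1.73), as was Lcp2 (-1.13), whose call was lost without any 1 culture or injured replicate 1 or 2 (adjusted p up to 0.0902). The level of Sirpb1a was 0.568 ± 0.230 CPM in uninjured cortex, 15.4 ± 8.95 CPM in injured cortex and 4.65 ± 1.07 CPM in cultures. The adaptor gene Tyrobp (0.57, adjusted p = 0.171) and Trem2 (0.21, adjusted p = 0.573) did not pass, and Tyrobp was called higher without injured replicate 2 (adjusted p = 0.0379).

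Among nuclear regulators, Tfec, of the MITF family, rose from 0.423 ± 0.0189 CPM in uninjured cortex to 2.56 ± 1.04 CPM in injured cortex (2.56, adjusted p = 0.00116) and 21.6 ± 1.99 CPM in cultures (3.08 against injured cortex, adjusted p = 1.82e-05; both in edgeR's test). Dropping uninjured replicates 2 and 3 ended the call after injury (adjusted p = 0.0791). Tfe3 did not pass (0.15) and Tfeb was lower in cultures than in injured cortex (-0.77, adjusted p = 0.00489). Of this list of 9, 2 were higher in cultures and 3 lower (20.0% and 30.1% of all genes). Ppargc1b was at 1.51, Nfatc2 at -1.62 and Prdm1 at -1.60. The calls of Ppargc1b and Prdm1 were lost without culture replicate 3 (adjusted p up to 0.0633 and 0.0600 over the alternatives), and also without injured replicate 1 and injured replicate 2, respectively. Spi1, which encodes PU.1, did not pass (-0.15). Of 6 restraints on the program, 2 were lower in cultures than in injured cortex, where 30.1% of all genes were. They were Tnfaip3 (-2.44) and Irf8 (-0.76), and Bcl6 (-0.89) did not pass. Irf8 was at 158 ± 15.8 CPM in uninjured cortex, 260 ± 34.6 CPM in injured cortex and 153 ± 21.3 CPM in cultures. Against uninjured cortex, cultures did not pass for this gene (-0.05). The call of Irf8 was lost without culture replicate 3 (adjusted p = 0.0619), and Bcl6 was called lower without culture replicate 1 (adjusted p = 0.0347).

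The other fusion genes moved both ways in cultures against injured cortex, with 6 of 13 fitted higher and 4 lower. Of all genes, 20.0% were higher and 30.1% lower, and 2 of the 15 listed fusion genes were too low to fit. Cd36, a scavenger receptor used in macrophage fusion, rose from 10.9 ± 5.45 to 3679 ± 433 CPM (8.40, adjusted p = 1.27e-07 in edgeR's test), and Adam8 from 32.3 ± 18.9 to 1098 ± 277 CPM (5.09). Cd44, the hyaluronan receptor, rose from 74.3 ± 33.4 to 246 ± 33.5 CPM (1.73). The tetraspanin genes Cd81 (-1.87) and Tspan7 (-2.34), the purinergic receptor gene P2rx7 (-1.28) and Cdh1 (-2.42) fell. The call of Cdh1 was lost without culture replicate 2, culture replicate 3 or injured replicate 1 (adjusted p up to 0.0957), and its value was -1.83 without injured replicate 1. Cd9, another tetraspanin gene, was at 0.51 with adjusted p = 0.202, and at adjusted p = 0.0487 when injured replicate 2 was left out.

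In the V-ATPase list, 12 of 19 fitted subunits were higher in cultures than in injured cortex, 3 lower and 4 not passing. The median log2 fold change was 0.84. The shares of all genes, here and for the resorption list below, were 20.0% higher and 30.1% lower. Atp6v1a rose from 128 ± 15.3 to 554 ± 61.2 CPM (2.11) and Atp6v1b2 from 159 ± 47.6 to 675 ± 57.3 CPM (2.09). Atp6v0e2 (-2.75), Atp6v0a2 (-0.74) and Atp6v1c2 (-1.93) were lower. The call of Atp6v0a2 was lost without culture replicate 3 (adjusted p = 0.0627), and that of Atp6v1c2 was lost in 13 alternatives and its value was -2.76 without culture replicate 3. In the resorption list, 6 of 9 fitted were higher and 2 lower. Tcirg1, the osteoclast a3 subunit of the pump, was at 1.20, the chloride channel gene Clcn7 at 1.69, its partner Ostm1 at 1.23 and the collagenase gene Mmp14 at 1.22. Car2, which encodes the carbonic anhydrase that supplies protons, fell from 1876 ± 711 to 29.7 ± 10.2 CPM (-5.98), and Mmp9 from 17.2 ± 3.12 to 1.10 ± 0.543 CPM (-3.97). Glia of the cortex also express Car2. Among glia, astrocytes and microglia had a marker list here and oligodendrocytes did not. The 6 astrocyte markers (Aqp4, Aldh1l1, Slc1a2, Slc1a3, Gja1 and Aldoc) all fell in cultures against injured cortex, from sums of 2028 to 3506 CPM to 82.7 to 145 CPM, with none at 0, and their part in the level of Car2 was not tested. Neutrophils are rich in Mmp9, and their markers summed to 223 to 336 CPM in injured cortex and 16.1 to 32.8 CPM in cultures. Their part in the level of Mmp9 was not tested. Calcr, the calcitonin receptor of mature osteoclasts, was too low to fit, with 1 count in all over the cultures, 0 over injured cortex and 1, 18 and 3 counts in the uninjured libraries (0.348 CPM on average).

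The podosome list had 4 of 10 genes higher and 0 lower, with Vcl (3.07), Cttn (1.61) and Ptk2b (1.12) among them. In this comparison, cultures against injured cortex, 20.0% of all genes were higher and 30.1% lower. Vcl, which encodes vinculin, was at 79.4, 19.1 and 21.9 CPM in the cultures and 3.87 to 5.27 CPM in injured cortex. Its log2 fold change was 2.10 without culture replicate 1. The call of Ptk2b was lost without culture replicate 1 (adjusted p = 0.0719). Of 12 fitted cathepsin genes, 3 were higher and 3 lower, where 50.1% of all genes were called in either direction. Ctsl was at 2.51, Ctsb at 2.41 and Ctsd at 2.07, and Ctsf (-2.10), Ctse (-2.14) and Ctsw (-4.13) were lower, with Ctsw at -3.51 without injured replicate 1. Ctss, the cathepsin of microglia and antigen-presenting cells, did not pass (0.05, adjusted p = 0.923). Markers of osteoblasts summed to 16.4 to 19.8 CPM in cultures and 18.2 to 36.7 CPM in the in vivo libraries, with Bglap, Ibsp, Sost and Phex at 0 in all cultures.

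**Figure D5:**
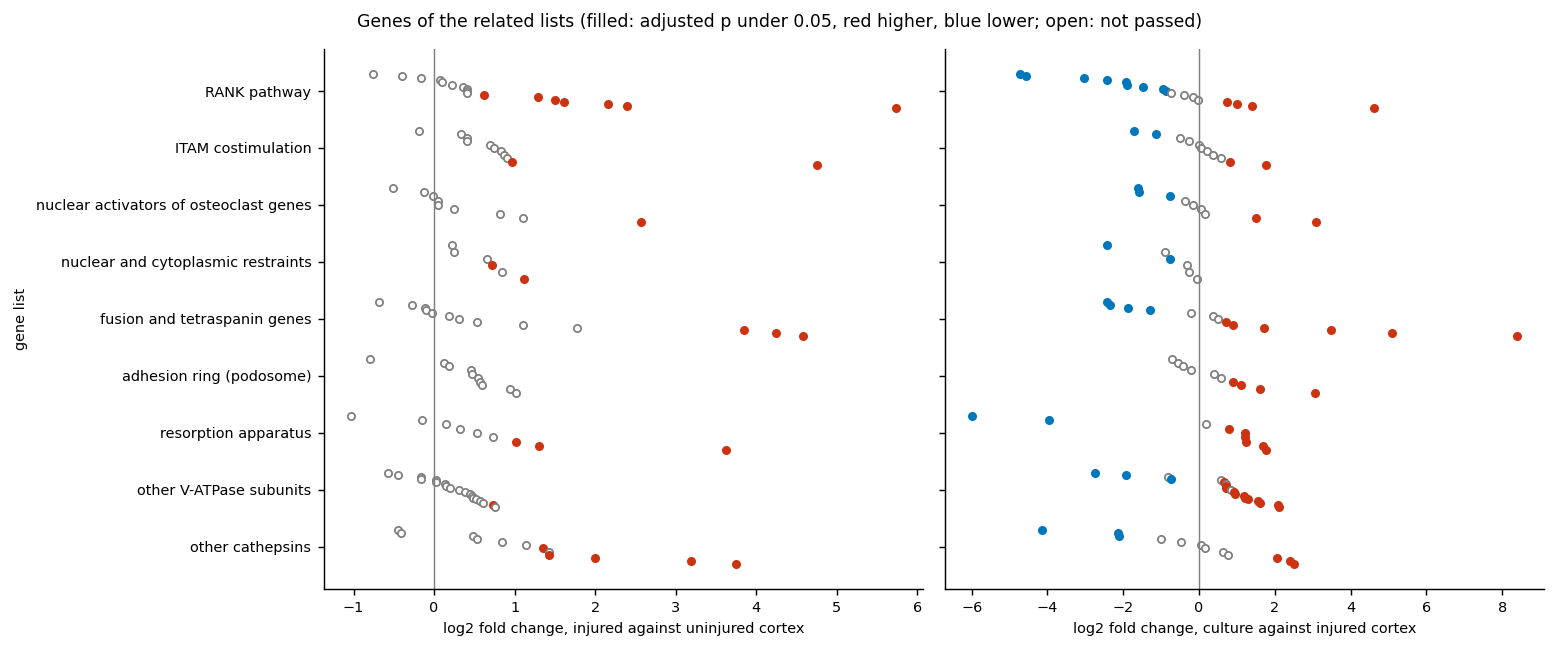
Log2 fold change (x axis) of each fitted gene in the 9 related lists (y axis), in injured against uninjured cortex (left) and cultures against injured cortex (right); filled points have an adjusted p under 0.05, red higher and blue lower. Filled points to the left of 0 appear only in the right panel, and the V-ATPase list holds 12 red and 3 blue points there.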

How the data were processed

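The deposited file holds raw counts per gene from the authors for 9 libraries, aligned with HISAT2 to GRCm39 per the submitters' processing notes. How reads were counted, by which annotation and strand setting, is not given in the sources used here, so reads from overlapping genes on opposite strands may not be separated. Where a symbol was shared (77 symbols), the gene with the highest total kept it. The 10 genes and all lists were chosen with earlier results of these data known.

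The fits used edgeR 4.0.16 under R 4.3.3. Genes passing filterByExpr at its defaults (18093) were scaled by TMM and fitted with a quasi-likelihood model with a mean per group (6 residual degrees of freedom). P-values were adjusted by Benjamini-Hochberg over all genes fitted, with calls under 0.05. CPM and SD are over 3 libraries. No column was left unmapped, and no pair of libraries of a group agreed within sampling noise. Exon lengths are unions from GENCODE M21. The code was tested on simulated data.

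Named outside the 10 were a fixed panel, up to 3 genes per list with the smallest adjusted p in cultures against injured cortex, called exceptions and the profiles most alike. Ostm1, Mmp14 and Ctse, and the platelet genes Itga2b and Pf4, were picked with their values known. Other settings tried were DESeq2 1.42.0 size factors and Wald test, upper-quartile factors, limma-voom (limma 3.58.1), no filter, 1 CPM in 3 libraries, 2 groups alone, a replicate block, each library left out, and uninjured replicates 2 and 3 left out together. Some genes that the naming rule covers are not reported here.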

Additional observations from a re-analysis of the deposited data

How the results depend on the processing

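The median log2 fold change of the fitted genes of the 10 was 0.81 in cultures against injured cortex and 1.85 in cultures against uninjured cortex with no filter on low counts, where Oscar enters. It moved by less than the spread between replicates under all other alternatives. Atp6v0d2, Acp5, Ctsk, Dcstamp, Itgb3, Nfatc1 and Tnfrsf11a kept the sign of cultures against injured cortex in all 18 alternatives, and Ocstamp (4 alternatives) and Mitf (2) changed it. The number of all genes called was 6997 in cultures against uninjured cortex with uninjured replicates 2 and 3 left out, against 10954. In injured against uninjured cortex it was 1369 with the 2 groups alone, 462 with uninjured replicates 2 and 3 left out, and 974 to 4102 with 1 library left out, against 2145. Pathway genes called in that comparison numbered 15, 7 and 13 to 41 in the same settings, against 24. Higher genes were 75.8% of the calls there, 64.0% with upper-quartile factors and 60.4% with the DESeq2 Wald test. Upper-quartile factors moved the median gene by -0.19 in cultures against uninjured cortex and by -0.13 in injured against uninjured cortex. With Csf1r as denominator in place of the macrophage list, 8 genes lay above and 0 below injured cortex, and 9 above and 0 below uninjured cortex, against 4, 1, 5 and 1. The shares of all genes on the Csf1r scale were not computed. Csf1r itself was lower in cultures than in both in vivo groups, so nothing is read from these counts. With the macrophage list as denominator and 1 library left out, cultures lay below uninjured cortex for 1 to 2 genes, and injured below uninjured cortex for 1 to 3. Same-numbered libraries did not all deviate together (correlations of deviations from -0.0880 to 0.353), and a library correlated best with its own number in 9 of 18 searches. A replicate block gave 9096, 11060 and 2203 calls in cultures against injured cortex, cultures against uninjured cortex and injured against uninjured cortex, against 9057, 10954 and 2145. Low counts limit Oscar, the in vivo levels of Atp6v0d2, and the uninjured levels of Dcstamp, Ocstamp and Tnfsf11.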
